A study of Homo sapiens with 8 samples.

Results

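The genes described here mostly encode the core of the spliceosome and the proteins that steer it. They are the rows of the count table whose symbols name SR proteins (SRSF), heterogeneous nuclear ribonucleoproteins (HNRNP, with RBMX), U2AF factors, SF3A and SF3B subunits, small nuclear ribonucleoprotein proteins (SNRP), LSM proteins and PRPF factors, without antisense RNAs and pseudogenes. The rule found 91 of the 27140 genes in the table, and 82 of the 91 had enough counts to be tested, against 15289 of all genes. By class, 12 of 12 SR proteins, 21 of 27 hnRNPs, 2 of 4 U2AF factors, 9 of 9 SF3 subunits, 12 of 13 SNRP proteins, 13 of 13 LSM proteins and 13 of 13 PRPF factors were tested. The rule used symbols and no measured value, although the genes and classes were chosen with earlier results of these data known.

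LNCaP is a human prostate adenocarcinoma line that expresses the androgen receptor, and METTL3 is the enzyme that writes N6-methyladenosine on messages. RNA was sequenced from 4 lentivirally transduced LNCaP lines with 2 libraries each. The mutant rescue carried a short hairpin against METTL3 and a hairpin-resistant METTL3 without catalytic activity, and the wild-type rescue carried that hairpin and a resistant wild-type METTL3. The knockdown carried the METTL3 hairpin with a vector and the control a control hairpin with a vector; the titles do not say what the vector holds. All lines were selected with puromycin at 1 µg/ml, and the labels do not say whether a line is 1 clone or a pool, or whether its 2 libraries came from separate cultures. The p-values therefore measure only the spread between these libraries, which may be technical. Each condition was 1 line, so an effect of METTL3 cannot be told apart from another difference between the lines.

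Splicing starts when the U1 particle binds the 5′ splice site and SF1 and U2AF mark the branch point and the 3′ splice site, after which U2 with its SF3A and SF3B complexes takes over the branch point. The tri-snRNP, which holds PRPF8, PRPF3 and PRPF31, then joins. SNRP proteins (the Sm ring and U1 or U2 proteins) and several LSM proteins coat the small nuclear RNAs. SR proteins mostly promote the use of nearby exons, many hnRNPs repress it, and several of both classes regulate their own messages through unproductive isoforms. HNRNPC, RBMX (hnRNP G) and HNRNPA2B1 are known to bind messages that carry methylated adenosine, and SRSF3 is a partner of the nuclear reader YTHDC1. The table holds 1 count per gene, so isoforms were not separated.

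The promoters of 6 genes that changed in these lines, not all in the same direction, are shown as examples. Promoter sequences came from RefSeq (build GRCh38.p14, 250 bases before to 50 after the gene start) and matched 71 of the 82 tested genes by symbol. Each runs 5′ to 3′ on the gene's strand, with the searched motif in capitals. SRSF3 and SRSF8, the SR genes that were lowest relative to the control, are shown with CCAAT or its reverse ATTGG.
SRSF3 promoter, GRCh38.p14 chr6:36594112-36594411, plus strand: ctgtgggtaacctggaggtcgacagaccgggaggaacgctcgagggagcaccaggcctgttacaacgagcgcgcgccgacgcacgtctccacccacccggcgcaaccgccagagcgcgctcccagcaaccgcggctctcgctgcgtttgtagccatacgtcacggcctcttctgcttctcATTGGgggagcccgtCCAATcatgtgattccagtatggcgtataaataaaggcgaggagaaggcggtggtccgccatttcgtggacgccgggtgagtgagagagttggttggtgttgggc
SRSF8 promoter, GRCh38.p14 chr11:95066627-95066926, plus strand: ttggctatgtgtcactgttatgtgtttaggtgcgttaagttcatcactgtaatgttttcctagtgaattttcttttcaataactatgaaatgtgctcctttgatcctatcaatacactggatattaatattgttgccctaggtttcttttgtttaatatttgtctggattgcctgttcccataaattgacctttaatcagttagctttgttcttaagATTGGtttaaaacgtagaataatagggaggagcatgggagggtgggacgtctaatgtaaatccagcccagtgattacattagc
HNRNPM and HNRNPD, both lower in the mutant rescue than in the wild-type rescue, are shown with the E-box CACGTG.
HNRNPM promoter, GRCh38.p14 chr19:8444725-8445024, plus strand: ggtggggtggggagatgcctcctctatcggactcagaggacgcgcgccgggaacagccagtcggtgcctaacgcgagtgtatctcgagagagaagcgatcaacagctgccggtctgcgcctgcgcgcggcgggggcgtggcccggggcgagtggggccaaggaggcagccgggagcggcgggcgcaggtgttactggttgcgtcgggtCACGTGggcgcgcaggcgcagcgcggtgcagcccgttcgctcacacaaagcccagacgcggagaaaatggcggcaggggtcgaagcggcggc
HNRNPD promoter, GRCh38.p14 chr4:82373942-82374241, minus strand: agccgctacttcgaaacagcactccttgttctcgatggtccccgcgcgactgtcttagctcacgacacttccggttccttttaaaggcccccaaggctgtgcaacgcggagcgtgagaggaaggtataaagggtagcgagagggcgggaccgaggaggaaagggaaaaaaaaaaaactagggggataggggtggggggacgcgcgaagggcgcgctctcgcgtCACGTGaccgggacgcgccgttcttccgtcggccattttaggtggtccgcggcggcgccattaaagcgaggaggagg
SRSF4, the SR gene that was higher in the mutant rescue, and SNRPC, one of the SNRP genes that were lower there, are shown with the ETS core CCGGAAG or its reverse CTTCCGG.
SRSF4 promoter, GRCh38.p14 chr1:29181851-29182150, minus strand: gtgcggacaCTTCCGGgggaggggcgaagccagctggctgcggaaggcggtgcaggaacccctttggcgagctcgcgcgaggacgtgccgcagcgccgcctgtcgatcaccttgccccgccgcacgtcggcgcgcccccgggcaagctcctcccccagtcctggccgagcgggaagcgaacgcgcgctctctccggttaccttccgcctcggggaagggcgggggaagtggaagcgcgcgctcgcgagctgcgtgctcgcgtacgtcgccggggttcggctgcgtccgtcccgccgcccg
SNRPC promoter, GRCh38.p14 chr6:34757255-34757554, plus strand: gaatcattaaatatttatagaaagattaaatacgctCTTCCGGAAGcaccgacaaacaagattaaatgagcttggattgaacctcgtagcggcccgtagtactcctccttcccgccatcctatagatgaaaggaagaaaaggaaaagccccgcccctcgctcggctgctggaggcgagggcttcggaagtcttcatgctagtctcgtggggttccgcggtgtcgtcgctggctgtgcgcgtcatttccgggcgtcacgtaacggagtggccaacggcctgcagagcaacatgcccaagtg
SRSF3 had its 2 CCAAT letters starting 70 and 55 bases before the gene start, and SRSF8 had its 1 starting 33 bases before. The E-box began 42 bases before the start of HNRNPM and 27 bases before that of HNRNPD. The ETS letters began 241 bases before the start of SRSF4, and in SNRPC 2 overlapping matches, 1 on each strand, began 214 and 211 bases before it.

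Over the matched genes, searched on both strands, CCGGAAG stood in 23 of 71 promoters (32.4%), against 10.7% of all 27305 promoters of that length. It was most frequent in the SNRP class (7 of 11 promoters) and the SF3 class (6 of 8), against 2 of 11 in the SR class and 3 of 20 in the hnRNPs. CACGTG stood in 7 of 71 (9.86%) against 7.43% of all, and 6 of those 7 were hnRNP promoters. CCAAT stood in 31 of 71 (43.7%) against 35.7%, with 13 of 20 hnRNP promoters and 2 of 11 SR promoters, the pair printed above. The GC box GGGCGG stood in 44 of 71 (62%) against 44.6%, and the cAMP response element TGACGTCA in 0 of 71 against 1.98%. The overlap of these motifs with each other was not counted, and base composition was not matched. The 27305 promoters were also not limited to genes with enough counts to be tested, as the 71 were. By call between the rescues, 12 matched genes were higher, 27 lower and 32 not called. CCAAT stood in 41.7%, 44.4% and 43.8% of their promoters, CCGGAAG in 33.3%, 29.6% and 34.4%, and CACGTG in 0%, 11.1% and 12.5%. GGGCGG stood in 66.7%, 59.3% and 62.5%, and a relation of motif to call was not tested. These shares describe letters in a window and no binding was measured.

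The libraries held 15200343 to 17893241 counts, and the 91 genes took 1.09% of them in both mutant rescue libraries, 1.17% and 1.15% in wild-type rescue cells, 1.14% and 1.13% in the knockdown, and 1.18% in both control libraries. METTL3 itself stood at 333.3 and 334.2 CPM (counts scaled to library size, with TMM factors) in the mutant rescue, 309.4 and 324.6 in wild-type rescue cells, 26.2 and 31.3 in the knockdown and 68.4 and 68.5 in the control, so the knockdown line kept part of its METTL3 (log2 fold change -1.26, SE 0.05, edgeR adjusted p = 1.50e-48). Counts of METTL3 do not separate the cells' own copy from the introduced one. All 8 luminal prostate markers were present, with sums of 7285 to 7329, 7372 to 7464, 7139 to 7214 and 8902 to 8950 CPM in the same order. Of 10 markers of basal, fibroblast, endothelial and immune cells, 3 were above 1 CPM throughout (COL1A1, VWF and KRT14), COL1A2 had 0 counts in every library, and KRT5, PTPRC and CD3E had at most 1. Their sums, mostly COL1A1, were 105.5 to 110.9 CPM in the mutant rescue, 102.8 to 104.4 in wild-type rescue cells, 94.5 to 99.8 in the knockdown and 87.6 to 88.1 in the control, and their part in the results was not tested. In bulk RNA, fewer cells of a type and less RNA per cell cannot be told apart.

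Knockdown against control compared the line with the METTL3 hairpin and a vector with the line that carried the control hairpin and a vector. Knockdown cells had less RNA for many SR proteins and hnRNPs, led by SRSF8, SRSF3 and SRSF6, and more for a smaller group led, among genes above 5 CPM, by LSM11. Of the 82 genes, 37 fell and 14 rose at an edgeR adjusted p under 0.05, or 62.2% called against 48% of all genes tested, 45.1% lower against 25.1%, and 17.1% higher against 22.9%. The median log2 fold change was -0.09 over the 82 genes and -0.01 over all genes tested. The changes were small: SRSF8, SRSF3, LSM11 and the barely counted SNRPN were past 0.5 on the log2 scale. These were 4 calls of 82 genes, against 1739 calls of 15289 over all genes tested. Called genes among the 82 had a median absolute log2 fold change of 0.19, against 0.29 over all called genes. The larger share called thus did not come with larger changes, and expression level was not matched in any comparison. The 14 higher calls became 9 with the DESeq2 Wald test and 8 without control replicate 2.

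Mutant rescue against wild-type rescue, which differ in the catalytic activity of the introduced METTL3, gave a similar tilt. SRSF3, SRSF2, HNRNPM, HNRNPD and HNRNPU were lower with the mutant protein, and SRSF4, PRPF3 and 6 LSM genes were higher, although 5 of those 6 LSM calls ended under some alternative. In total 30 genes fell and 16 rose, or 56.1% called against 41.3% of all genes, 36.6% lower against 20.3%, and 19.5% higher against 21%. The median log2 fold change was -0.04 over the 82 genes and 0.00 over all genes tested. Called genes among the 82 had a median absolute log2 fold change of 0.22, against 0.25 over all called genes. The 16 higher calls became 10 with the DESeq2 Wald test.

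Wild-type rescue against knockdown showed the smallest changes. No gene of the 82 passed 0.5 on the log2 scale, and few of all genes did (192 of 15289 called past it). Of the 82, 23 rose and 6 fell, or 35.4% called against 24% of all genes. The share higher was 28% against 10.8%, and the share lower 7.32% against 13.2%. The rises were led by HNRNPA1, SF3A2 and SRSF4, and the largest fall was in PRPF8. SRSF3 and SRSF8, the largest falls of the knockdown, were not called here. The counts were 11 and 3 with the DESeq2 Wald test, 15 higher without wild-type rescue replicate 1, and 3 lower without knockdown replicate 1. Log2 fold changes in this comparison also followed gene length, with a Spearman correlation of -0.33 across the 82 genes and -0.35 across 15289 genes, which are not independent replicates.

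Mutant rescue against knockdown moved genes both ways, 28 higher and 29 lower, or 69.5% called against 51.7% of all genes, 34.1% higher against 25.9% and 35.4% lower against 25.8%. SRSF4 and PRPF3 rose most, and HNRNPM, HNRNPU and SRSF3 fell most among genes with at least 5 CPM. Against the control, the wild-type rescue had 20 genes higher and 28 lower (58.5% called against 49.3% of all genes, 24.4% higher against 23.8%, 34.1% lower against 25.5%). The mutant rescue had 24 higher and 35 lower against the control (72% called against 58.8%, 29.3% higher against 29.1%, 42.7% lower against 29.7%). These comparisons share libraries with one another, so their counts are not separate evidence. The libraries of the 2 groups did not overlap in CPM for 68 of the 82 genes on knockdown (72.5% of all genes), 56 between the rescues (67.7%), 60 in the wild-type rescue against the knockdown (57.7%), 66 in the mutant rescue against it (74%), 65 in the wild-type rescue against the control (72.7%) and 68 in the mutant rescue against it (77.7%).

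**Figure D1:**
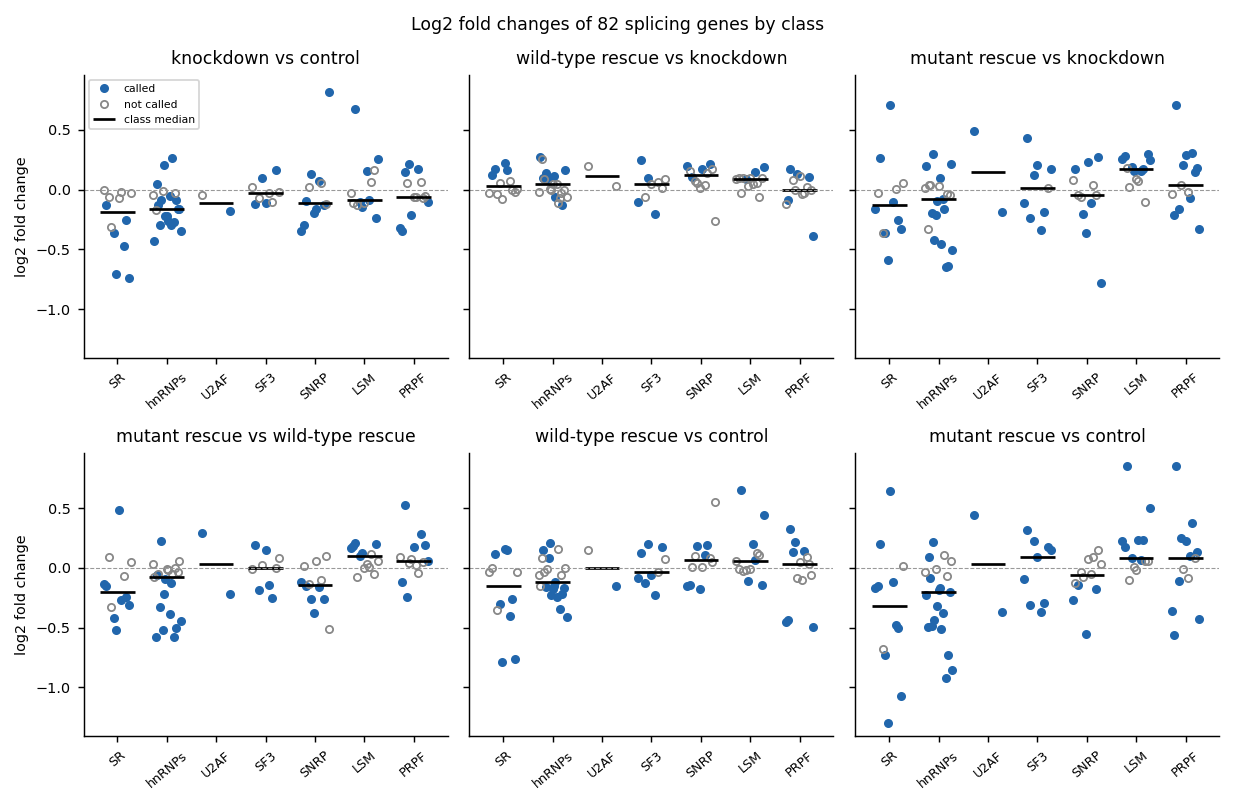
Log2 fold change (vertical axis) of each of the 82 tested genes by class (horizontal axis) in the 6 comparisons; filled points were called at an edgeR adjusted p under 0.05, open points were not, and bars are class medians. In mutant rescue vs wild-type rescue 7 of 12 SR genes lie below 0 as calls, and all 6 called LSM genes lie above it.

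SR proteins bind exonic enhancers and bring in U1 and U2AF. On knockdown 6 of 12 fell and none rose (SRSF8, SRSF3, SRSF6, SRSF2, SRSF7 and SRSF10), with a class median of -0.19 on the log2 scale (-0.23 to -0.12 over the 14 alternatives). The share called on knockdown was 50%, near the 48% of all genes tested, so only the direction differed. Falls were 50% against 25.1% and rises 0% against 22.9%. Between the rescues, mutant over wild-type, 7 fell and 1 rose, with a median of -0.20 (-0.20 to -0.13). These were 58.3% and 8.33% of the class, against 20.3% and 21% of all genes. In the wild-type rescue against the knockdown 4 rose and none fell, and in the mutant rescue against the knockdown 2 rose and 6 fell. The shares were 33.3% higher and 0% lower, against 10.8% and 13.2% of all genes, then 16.7% and 50%, against 25.9% and 25.8%. Against the control, the mutant rescue had 2 higher and 8 lower, and the wild-type rescue 3 higher and 5 lower. Here the shares were 16.7% and 66.7%, against 29.1% and 29.7% of all genes, then 25% and 41.7%, against 23.8% and 25.5%. The knockdown call of SRSF10 ended with the DESeq2 Wald test and without replicate 2 of the knockdown or of the control (adjusted p up to 0.365 by edgeR or DESeq2).

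SRSF3, a small SR protein that also acts in export and polyadenylation, had 64.9 and 68.7 CPM in the mutant rescue, 96.0 and 95.1 in wild-type rescue cells, 98.1 and 104 in the knockdown and 166 and 163 in the control. No groups overlapped: the control libraries were highest and the mutant rescue lowest, with the wild-type rescue just under the knockdown. SRSF3 fell in the knockdown against the control (log2 fold change -0.71 ± 0.04 SE, adjusted p = 3.67e-41 by edgeR) and between the rescues (log2 fold change -0.52 ± 0.04 SE, adjusted p = 7.05e-22 by edgeR). The wild-type rescue did not differ from the knockdown at the threshold (log2 fold change -0.08 ± 0.04 SE, adjusted p = 0.171 by edgeR), and was lower than the control by 0.78 on the log2 scale. From mutant rescue to control the means were 66.8 ± 2.67, 95.6 ± 0.624, 100.8 ± 3.86 and 164.7 ± 2.0 CPM (SD, n = 2 each), the widest range of all 82 genes (2.465-fold).

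SRSF8 is an intronless relative that arose from an SRSF2 transcript, so reads may be shared between them. It had 54.1 and 52.9 CPM in the mutant rescue, 63.9 and 68.5 in wild-type rescue cells, 66.2 and 68.3 in the knockdown and 112 and 114 in the control. The mutant rescue was lowest and the control stood alone at the top, while the wild-type rescue and the knockdown overlapped. It fell on knockdown (log2 fold change -0.74 ± 0.04 SE, adjusted p = 5.64e-35 by edgeR) and between the rescues by 0.31 ± 0.05 (SE, adjusted p = 6.39e-08 by edgeR), and differed by -0.02 ± 0.05 (SE, adjusted p = 0.824 by edgeR) in the wild-type rescue against the knockdown.

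SRSF2 (SC35), which binds exonic enhancers and marks nuclear speckles, had 89.5 and 92.2 CPM in the mutant rescue, 123 and 120.3 in wild-type rescue cells, 119 and 116 in the knockdown and 149 and 152 in the control. The mutant rescue libraries were lowest and the control libraries highest, with the wild-type rescue and knockdown between them. The log2 fold change was -0.36 ± 0.04 (SE, adjusted p = 9.60e-18 by edgeR) on knockdown and -0.42 ± 0.04 (SE, adjusted p = 1.54e-19 by edgeR) between the rescues.

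SRSF7, which shares RNA binding preferences with SRSF3, had 64.7 and 62.9 CPM in the mutant rescue, 74.5 and 76.6 in wild-type rescue cells, 75.3 and 76.6 in the knockdown and 87.9 and 93.3 in the control, so the mutant rescue was lowest and the control highest. Its log2 fold change was -0.26 on knockdown and -0.25 between the rescues, both called. SRSF6 had 171 and 177 CPM in the mutant rescue, 184 and 181 in wild-type rescue cells, 174 and 174 in the knockdown and 235 and 249 in the control. The control libraries were far above the rest, and the wild-type rescue lay just above the overlapping mutant rescue and knockdown. SRSF6 fell on knockdown (log2 fold change -0.48 ± 0.03 SE, adjusted p = 3.67e-34 by edgeR), while the mutant and the wild-type rescue differed by -0.07 ± 0.03 (SE, adjusted p = 0.0576 by edgeR).

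SRSF4 (SRp75), one of the largest SR proteins, went the other way, with 152 and 156 CPM in the mutant rescue, 108 and 111 in wild-type rescue cells, 95.2 and 92.8 in the knockdown and 99.9 and 97.3 in the control. Both mutant rescue libraries were above all others, and the wild-type rescue was above the knockdown and the control. SRSF4 rose in the mutant over the wild-type rescue (log2 fold change 0.49 ± 0.04 SE, adjusted p = 4.18e-26 by edgeR) and in the wild-type rescue against the knockdown (log2 fold change 0.22 ± 0.04 SE, adjusted p = 7.39e-07 by edgeR), while knockdown against control gave -0.07 ± 0.04 (SE, adjusted p = 0.15 by edgeR). SRSF5, a relative that responds to growth signals, had 143 and 145 CPM in the mutant rescue, 174 and 173 in wild-type rescue cells, 154 and 155 in the knockdown and 155 and 158 in the control. It was highest in the wild-type rescue and lowest in the mutant rescue, with a log2 fold change of -0.27 ± 0.03 (SE, adjusted p = 6.15e-13 by edgeR) between the rescues. SRSF11 rose in both rescues over the knockdown, by 0.17 (wild-type) and 0.26 (mutant). SRSF1 (SF2/ASF), the founding member of the family, had 242 and 243 CPM in the mutant rescue, 270.2 and 262 in wild-type rescue cells, 274 and 269.8 in the knockdown and 277 and 269.6 in the control, with a log2 fold change of -0.13 between the rescues. SRSF9 had 140.5 and 142 CPM in the mutant rescue, 133 and 139 in wild-type rescue cells, 137 and 135 in the knockdown and 141 and 138 in the control. It and SRSF12, which had 14 to 27 counts, were called in none of the 6 comparisons.

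**Figure D2:**
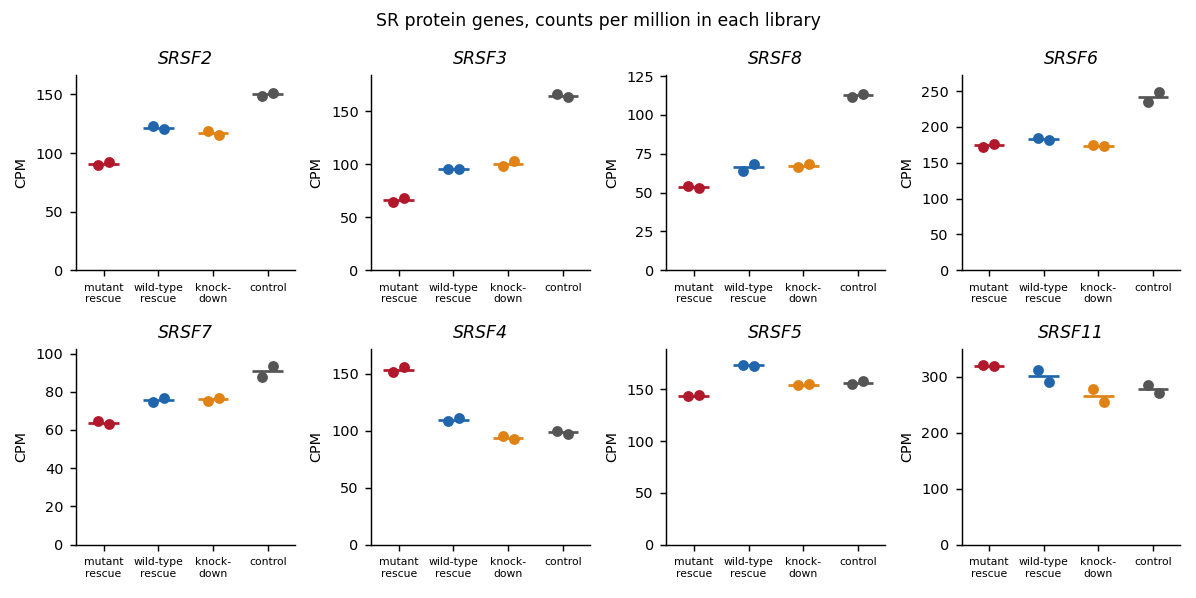
CPM (vertical axis, from 0) of 8 SR genes in each library; points are the 2 libraries of a line and bars their mean, with the mutant rescue at the left and the control at the right. SRSF3 and SRSF8 were highest in the control (means 164.7 and 112.6 CPM) and lowest in the mutant rescue (66.8 and 53.5), whereas SRSF4 was highest in the mutant rescue.

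The hnRNPs coat nascent RNA and often block splice sites. On knockdown 14 of 21 fell and 3 rose, with a median of -0.16 (-0.17 to -0.14 over the alternatives). Between the rescues 11 fell and 1 rose, with a median of -0.07 (-0.09 to -0.06). The falls were 66.7% and 52.4% of the class, against 25.1% and 20.3% of all genes tested. In the wild-type rescue against the knockdown 7 rose and 2 fell, and in the mutant rescue against the knockdown 4 rose and 10 fell. The shares were 33.3% higher and 9.52% lower, against 10.8% and 13.2% of all genes, then 19% and 47.6%, against 25.9% and 25.8%. Against the control, the mutant rescue had 2 higher and 14 lower, and the wild-type rescue 3 higher and 10 lower. Here the shares were 9.52% and 66.7%, against 29.1% and 29.7% of all genes, then 14.3% and 47.6%, against 23.8% and 25.5%.

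HNRNPM, which represses or promotes exons through GU-rich sites, had 80.9 and 80.6 CPM in the mutant rescue, 124 and 118 in wild-type rescue cells, 126 and 128 in the knockdown and 154 and 152 in the control. The mutant rescue libraries were lowest by a wide margin and the control highest, and the wild-type rescue and knockdown nearly met. It fell by 0.58 ± 0.04 (SE, adjusted p = 3.03e-29 by edgeR) on the log2 scale between the rescues and by 0.27 ± 0.03 (SE, adjusted p = 9.33e-12 by edgeR) on knockdown. HNRNPU (SAF-A), a chromatin-associated scaffold protein, had 370.4 and 369.9 CPM in the mutant rescue, 534 and 518 in wild-type rescue cells, 581 and 571 in the knockdown and 617 and 609 in the control. All 4 groups separated in this order, and the log2 fold change was -0.51 ± 0.02 (SE, adjusted p = 1.20e-48 by edgeR) between the rescues and -0.09 ± 0.02 (SE, adjusted p = 0.000111 by edgeR) on knockdown.

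HNRNPD (AUF1), which also controls decay through AU-rich elements, had 184 and 190.2 CPM in the mutant rescue, 267 and 269 in wild-type rescue cells, 251 and 252 in the knockdown and 253 and 255 in the control. Only the mutant rescue was low: the log2 fold change was -0.52 ± 0.03 (SE, adjusted p = 7.84e-40 by edgeR) between the rescues and -0.01 ± 0.03 (SE, adjusted p = 0.696 by edgeR) on knockdown. HNRNPK, a poly(C)-binding protein, had 288 and 289 CPM in the mutant rescue, 383 and 373 in wild-type rescue cells, 396 and 392 in the knockdown and 418 and 401 in the control, again with the mutant rescue apart from the rest (log2 fold change -0.39 ± 0.02 SE, adjusted p = 9.21e-33 by edgeR). Its knockdown value of -0.06 lost its call in 8 of 14 alternatives, with an adjusted p up to 0.495. HNRNPAB stood at 114 and 110.0 CPM in the mutant rescue, 140.1 and 142 in wild-type rescue cells, 124 and 133 in the knockdown and 156 and 158 in the control, lowest in the mutant rescue and highest in the control, and was called in all 6 comparisons. In HNRNPDL, a relative of HNRNPD, the control and the mutant rescue were both low (148 and 155 CPM in the mutant rescue, 184 and 169.7 in wild-type rescue cells, 178 and 174 in the knockdown and 153 and 152 in the control), with 0.20 on knockdown and -0.22 between the rescues.

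Of the proteins known to bind methylated messages, RBMX had 50.7 and 53.2 CPM in the mutant rescue, 70.4 and 70.9 in wild-type rescue cells, 73.3 and 74.0 in the knockdown and 96.2 and 91.4 in the control. It followed the order of SRSF3, with the mutant rescue lowest and the control highest. It fell on knockdown (log2 fold change -0.35 ± 0.05 SE, adjusted p = 1.32e-11 by edgeR) and between the rescues (log2 fold change -0.44 ± 0.05 SE, adjusted p = 5.89e-14 by edgeR). RBMX has processed copies and close relatives, so its reads may be shared.

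HNRNPC, which binds uridine tracts, had 382 and 371 CPM in the mutant rescue, 329 and 316 in wild-type rescue cells, 300.3 and 312 in the knockdown and 329 and 321 in the control, with the mutant rescue above all others and the knockdown below them. It was the only hnRNP that rose between the rescues (log2 fold change 0.22 ± 0.02 SE, adjusted p = 3.41e-15 by edgeR). Its call on knockdown (-0.09) ended with the DESeq2 Wald test, with the length trend removed and without knockdown replicate 1 or control replicate 1 (adjusted p up to 0.114). HNRNPA2B1, the most abundant gene of the set per length, had 1007 and 1036 CPM in the mutant rescue, 1077 and 1049 in wild-type rescue cells, 995 and 991 in the knockdown and 962 and 958 in the control. Its differences were within 0.15 on the log2 scale, at 0.05 ± 0.02 (SE, adjusted p = 0.0223 by edgeR) on knockdown and -0.06 ± 0.02 (SE, adjusted p = 0.00926 by edgeR) between the rescues. The knockdown call ended without knockdown replicate 1 or either control library (adjusted p up to 0.125) and the call between the rescues without the first library of either rescue (up to 0.218).

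HNRNPL and HNRNPF, which bind CA repeats and G-tracts, were lower on knockdown by 0.30 and 0.22 on the log2 scale. HNRNPL had 204 and 206 CPM in the mutant rescue, 223 and 225 in wild-type rescue cells, 213 and 221 in the knockdown and 267 and 265 in the control, highest in the control. The largest rise on knockdown in this class was 0.27 in HNRNPLL, a regulator of CD45 splicing in lymphocytes, at 32.8 and 31.0 CPM in the mutant rescue, 35.1 and 31.1 in wild-type rescue cells, 35.5 and 35.8 in the knockdown and 29.1 and 30.1 in the control. HNRNPA1 had 332 to 471 counts, few for so abundant a protein; it has many near-identical processed copies, so its values (-0.43 on knockdown) and those of HNRNPA1L2 (43 to 84 counts) are uncertain. HNRNPA0 and HNRNPR were called in no comparison. HNRNPH2 had 0 to 4 counts and was not tested, as were HNRNPCL1 to HNRNPCL4 and the readthrough HNRNPUL2-BSCL2, with at most 1 count in any library.

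**Figure D3:**
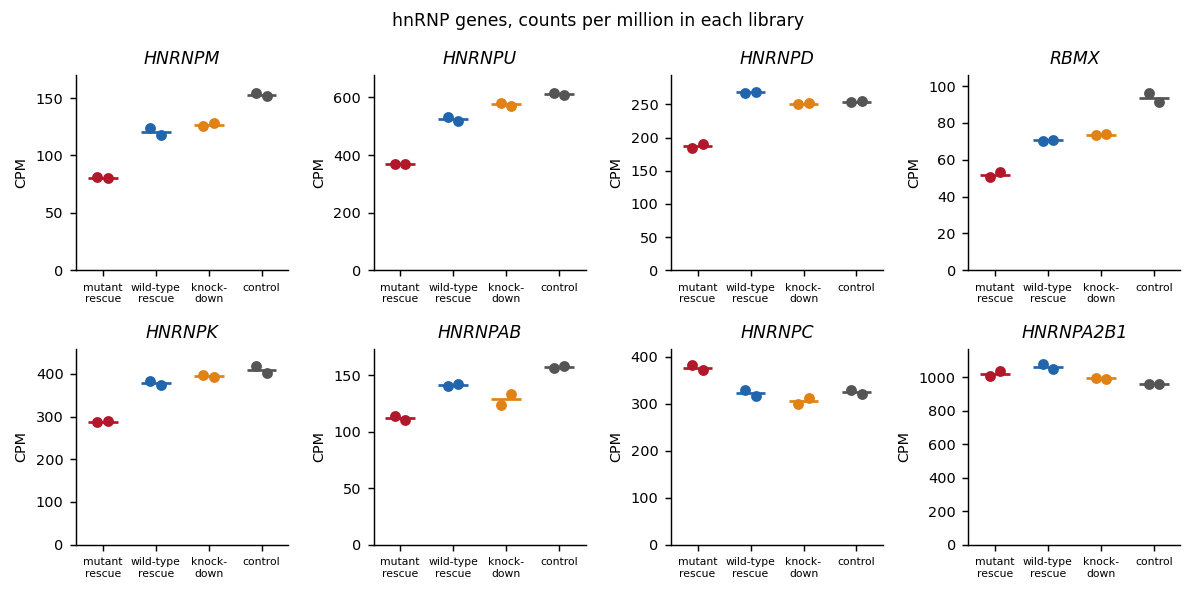
CPM (vertical axis, from 0) of 8 hnRNP genes in each library, with bars at the mean of 2. In HNRNPM, HNRNPU, HNRNPD, RBMX and HNRNPK the mutant rescue is below the other 3 lines, and in HNRNPC it is above them (means of 376.8, 322.7, 306.1 and 324.9 CPM from mutant rescue to control).

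U2AF recognizes the polypyrimidine tract and AG of the 3′ splice site. U2AF2, its large subunit, had 178 and 175 CPM in the mutant rescue, 206 and 205 in wild-type rescue cells, 201 and 202 in the knockdown and 221 and 235 in the control; the mutant rescue was lowest and the control highest. It fell by 0.18 ± 0.03 (SE, adjusted p = 1.44e-08 by edgeR) on knockdown and by 0.22 ± 0.03 (SE, adjusted p = 9.58e-11 by edgeR) between the rescues on the log2 scale. U2AF1, the small subunit, had 0 counts in all 8 libraries, and its near-identical copy U2AF1L5 had 4 to 11 counts, so the level of this subunit could not be read. U2AF1L4, a related gene, had 17.7 and 16.6 CPM in the mutant rescue, 14.0 and 14.0 in wild-type rescue cells, 11.1 and 13.5 in the knockdown and 12.5 and 12.7 in the control and rose in the mutant rescue against the knockdown (log2 fold change 0.49 ± 0.10 SE, adjusted p = 1.17e-05 by edgeR).

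The SF3A and SF3B complexes hold U2 on the branch point. Their 9 genes split evenly: 2 rose and 2 fell on knockdown, and 2 rose and 3 fell between the rescues. On knockdown 22.2% went each way, near the 22.9% higher and 25.1% lower of all genes tested. Between the rescues 22.2% rose and 33.3% fell, against 21% and 20.3%. In the wild-type rescue against the knockdown 2 rose and 2 fell, and in the mutant rescue against the knockdown 4 rose and 4 fell. The shares were 22.2% each way, against 10.8% higher and 13.2% lower of all genes, then 44.4% each way, against 25.9% and 25.8%. Against the control, 5 rose and 4 fell in the mutant rescue and 3 rose and 4 fell in the wild-type rescue. Here the shares were 55.6% and 44.4%, against 29.1% and 29.7% of all genes, then 33.3% and 44.4%, against 23.8% and 25.5%. SF3A2, the SF3a subunit that contacts U2, had 214 and 206 CPM in the mutant rescue, 180.2 and 187 in wild-type rescue cells, 151 and 159 in the knockdown and 165 and 172 in the control, with the mutant rescue highest and the knockdown lowest. It rose in the wild-type rescue against the knockdown (log2 fold change 0.25 ± 0.03 SE, adjusted p = 2.77e-11 by edgeR) and further between the rescues (log2 fold change 0.19 ± 0.03 SE, adjusted p = 2.56e-08 by edgeR), and was called in all 6 comparisons. Its fall on knockdown (-0.12) lost the call without knockdown replicate 1 or control replicate 2 (adjusted p up to 0.0914).

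SF3B3, a scaffold of SF3b, ran opposite, with 240.2 and 233 CPM in the mutant rescue, 265 and 257 in wild-type rescue cells, 297 and 303 in the knockdown and 307 and 303 in the control. Both rescues were below the knockdown and the control, the mutant rescue most, at -0.34 ± 0.03 (SE, adjusted p = 1.57e-25 by edgeR) against the knockdown. SF3A3 and SF3B4 were lower in the mutant than in the wild-type rescue, by 0.18 and 0.26 on the log2 scale; the call of SF3A3 ended without mutant rescue replicate 2 (adjusted p = 0.0724). SF3B2, the SF3b subunit that contacts RNA beside the branch site, had 422 and 425 CPM in the mutant rescue, 377 and 384 in wild-type rescue cells, 368 and 368 in the knockdown and 401 and 394 in the control, lowest in the knockdown and highest in the mutant rescue. SF3A1 was below the knockdown by 0.11 in both rescues, and SF3B5, a small subunit, was at 0.16 on knockdown. SF3B1, the subunit mutated in several cancers, had 414 and 419 CPM in the mutant rescue, 408 and 411 in wild-type rescue cells, 389.6 and 375 in the knockdown and 352 and 362 in the control. It was lowest in the control, with 0.10 ± 0.02 (SE, adjusted p = 0.000172 by edgeR) on knockdown and 0.22 ± 0.02 (SE, adjusted p = 2.58e-16 by edgeR) in the mutant rescue against the control.

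SNRP genes encode the Sm ring shared by U1, U2, U4 and U5 and the U1 and U2 specific proteins. On knockdown 3 of 12 rose and 6 fell (median -0.11, -0.12 to -0.07 over the alternatives). Between the rescues none rose and 6 fell (median -0.14, -0.16 to -0.12). The falls were 50% of the class in both, against 25.1% and 20.3% of all genes tested. The rises on knockdown were 25% against 22.9%. In the wild-type rescue against the knockdown 4 rose and none fell, and in the mutant rescue against the knockdown 3 rose and 4 fell. The shares were 33.3% higher and 0% lower, against 10.8% and 13.2% of all genes, then 25% and 33.3%, against 25.9% and 25.8%. Against the control none rose and 4 fell in the mutant rescue, and 3 rose and 3 fell in the wild-type rescue. In the mutant rescue 33.3% were called, below the 58.8% of all genes. The wild-type rescue shares, 25% each way, were near the 23.8% and 25.5% of all genes.

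SNRPD1, an Sm ring protein, had 44.8 and 43.7 CPM in the mutant rescue, 58.3 and 56.7 in wild-type rescue cells, 58.1 and 55.4 in the knockdown and 66.4 and 63.6 in the control. The mutant rescue was lowest and the control highest, at -0.19 ± 0.05 (SE, adjusted p = 0.000422 by edgeR) on knockdown and -0.38 ± 0.05 (SE, adjusted p = 5.60e-10 by edgeR) between the rescues. SNRPA, a U1 protein, had 72.9 and 75.6 CPM in the mutant rescue, 78.7 and 82.2 in wild-type rescue cells, 73.5 and 66.9 in the knockdown and 89.6 and 89.1 in the control. Its mean was lowest in the knockdown, whose libraries overlapped with the mutant rescue, with -0.35 ± 0.05 (SE, adjusted p = 2.78e-11 by edgeR) against the control. SNRPA1, a U2 protein, fell by 0.30 on knockdown. SNRPC, the U1 protein that contacts the 5′ splice site, had 48.1 and 52.1 CPM in the mutant rescue, 59.1 and 60.9 in wild-type rescue cells, 58.7 and 56.6 in the knockdown and 52.5 and 53.2 in the control; it was lower in the mutant than in the wild-type rescue (log2 fold change -0.26 ± 0.05 SE, adjusted p = 7.90e-06 by edgeR). SNRPF, another Sm protein, differed by -0.26 ± 0.05 (SE, adjusted p = 2.38e-05 by edgeR) between the rescues. SNRPD2, an Sm protein, had 128 and 119 CPM in the mutant rescue, 113 and 124 in wild-type rescue cells, 107 and 104 in the knockdown and 118 and 117 in the control and rose in the mutant rescue against the knockdown by 0.23 ± 0.04 (SE, adjusted p = 8.08e-08 by edgeR). SNRPG, also of the Sm ring, rose by 0.27 in the mutant rescue against the knockdown, a call lost in 4 of 14 alternatives (adjusted p up to 0.491). SNRPD3, an Sm protein, was at 0.07 on knockdown, a call lost in 3 (up to 0.452), and -0.16 between the rescues, and SNRPE at 0.19 in the wild-type rescue against the control, lost in 4 (up to 0.255).

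SNRPN, a brain-enriched relative of SNRPB with which it may share reads, had 16 to 37 counts. Its knockdown value of 0.81 (SE 0.32, edgeR adjusted p = 0.0249) lost the call with the DESeq2 Wald test and without any of the 4 libraries compared (adjusted p up to 0.167). SNRPD2P2, which carries a pseudogene name that the rule kept, had 0 counts.

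Several LSM proteins form the ring on U6 in the nucleus or a related ring that acts in decay of messages in the cytoplasm. LSM10 and LSM11 belong to the ring of U7, which processes histone messages. The class was set by symbol, and not all of its genes belong to these rings. None of the 13 fell, and 8 rose, in the mutant rescue against the knockdown (median 0.17, 0.15 to 0.18 over the alternatives), and none fell and 6 rose against the wild-type rescue (median 0.10, 0.07 to 0.11). The 6 were LSM11, LSM7, LSM10, LSM1, LSM14B and LSM14A, and all but LSM7 lost the call under at least 1 alternative (adjusted p up to 0.365). In the wild-type rescue against the knockdown 3 rose and none fell, and on knockdown 3 rose and 4 fell. The knockdown shares, 23.1% higher and 30.8% lower, were near the 22.9% and 25.1% of all genes tested. Rises between the rescues were 46.2% of the class, against 21% of all genes. Against the control, 8 rose and none fell in the mutant rescue, and 4 rose and 2 fell in the wild-type rescue. In the mutant rescue 61.5% rose against the knockdown and 61.5% against the control, beside 25.9% and 29.1% of all genes. In the wild-type rescue 23.1% rose against the knockdown and 30.8% against the control, beside 10.8% and 23.8% of all genes.

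LSM11 had 20.2 and 20.5 CPM in the mutant rescue, 17.6 and 17.7 in wild-type rescue cells, 17.8 and 18.2 in the knockdown and 11.9 and 10.6 in the control; only the control was low. It rose by 0.67 ± 0.10 (SE, adjusted p = 2.28e-09 by edgeR) on knockdown and by 0.85 ± 0.10 (SE, adjusted p = 3.94e-14 by edgeR) in the mutant rescue against the control. LSM7, a member of both U6 and decay rings, had 61.8 and 61.1 CPM in the mutant rescue, 54.5 and 52.7 in wild-type rescue cells, 48.6 and 51.6 in the knockdown and 59.3 and 58.9 in the control. The mutant rescue and the control were high and the knockdown low, with -0.24 ± 0.05 (SE, adjusted p = 2.54e-05 by edgeR) on knockdown and 0.20 ± 0.05 (SE, adjusted p = 0.000537 by edgeR) between the rescues. LSM8, which is particular to the nuclear U6 ring, had 50.2 and 52.6 CPM in the mutant rescue, 51.3 and 47.7 in wild-type rescue cells, 44.9 and 41.9 in the knockdown and 35.4 and 37.3 in the control, lowest in the control (log2 fold change 0.26 ± 0.06 SE, adjusted p = 0.000103 by edgeR on knockdown). LSM1, which takes its place in the cytoplasmic ring, and LSM10 rose by 0.25 and 0.28 in the mutant rescue against the knockdown. LSM4 was at 0.15 in the wild-type rescue against the knockdown. LSM2, LSM6 and LSM12 were called in no comparison.

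PRPF genes, named after yeast splicing mutants, encode tri-snRNP proteins, activation factors and U1-associated proteins. On knockdown 3 of 13 rose and 4 fell, and between the rescues 5 rose and 2 fell. The knockdown shares, 23.1% higher and 30.8% lower, were near the 22.9% and 25.1% of all genes tested. Between the rescues the shares were 38.5% higher and 15.4% lower, against 21% and 20.3%. In the mutant rescue against the knockdown 6 rose and 4 fell, and in the wild-type rescue against the knockdown 3 rose and 2 fell. The shares were 46.2% higher and 30.8% lower, against 25.9% and 25.8% of all genes, then 23.1% and 15.4%, against 10.8% and 13.2%. Against the control, 6 rose and 4 fell in the mutant rescue, and 4 rose and 3 fell in the wild-type rescue. Here the shares were 46.2% and 30.8%, against 29.1% and 29.7% of all genes, then 30.8% and 23.1%, against 23.8% and 25.5%.

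PRPF3, a U4/U6 protein, had 64.0 and 62.1 CPM in the mutant rescue, 42.1 and 45.0 in wild-type rescue cells, 39.5 and 37.7 in the knockdown and 35.1 and 34.6 in the control. The mutant rescue was far above the other lines, of which the wild-type rescue was highest and the control lowest. It rose between the rescues (log2 fold change 0.53 ± 0.05 SE, adjusted p = 3.12e-17 by edgeR) and against the control by 0.85 ± 0.06 (SE, adjusted p = 1.60e-31 by edgeR). Its smaller values of 0.15 on knockdown and 0.18 in the wild-type rescue against the knockdown each lost the call in 4 of 14 alternatives (adjusted p up to 0.235 and 0.284). PRPF8, the U5 protein at the catalytic centre, had 426 and 422 CPM in the mutant rescue, 404 and 409 in wild-type rescue cells, 526 and 538 in the knockdown and 579 and 565 in the control. Both rescues were below the knockdown and the control: the wild-type rescue differed from the knockdown by -0.39 ± 0.02 (SE, adjusted p = 1.23e-36 by edgeR) and the mutant rescue by -0.33 ± 0.02 (SE, adjusted p = 2.15e-30 by edgeR). Its small difference between the rescues (0.06) lost the call with the DESeq2 Wald test and without the first library of either rescue (adjusted p up to 0.126).

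PRPF19, the ubiquitin ligase of the Prp19 complex, had 121 and 129.8 CPM in the mutant rescue, 138 and 136 in wild-type rescue cells, 144 and 147 in the knockdown and 187 and 184 in the control and was lower on knockdown (log2 fold change -0.35 ± 0.03 SE, adjusted p = 1.06e-19 by edgeR), with the control alone at the top. PRPF18, a second-step factor, had 18.5 and 16.0 CPM in the mutant rescue, 16.0 and 16.4 in wild-type rescue cells, 17.2 and 18.2 in the knockdown and 22.1 and 22.2 in the control, also highest in the control (log2 fold change -0.33 ± 0.09 SE, adjusted p = 0.000768 by edgeR on knockdown). PRPF31, a U4/U6 protein mutated in retinitis pigmentosa, had 62.5 and 64.8 CPM in the mutant rescue, 76.2 and 74.5 in wild-type rescue cells, 69.5 and 72.9 in the knockdown and 68.4 and 69.0 in the control; it was lowest in the mutant rescue (log2 fold change -0.24 ± 0.05 SE, adjusted p = 8.96e-06 by edgeR). PRPF40B, a U1-associated protein, had 32.7 and 32.4 CPM in the mutant rescue, 26.0 and 27.3 in wild-type rescue cells, 26.2 and 26.3 in the knockdown and 26.0 and 24.3 in the control and rose in the mutant rescue over the wild-type rescue (log2 fold change 0.29 ± 0.07 SE, adjusted p = 0.000386 by edgeR). PRPF39, another U1-associated protein, and PRPF6, a tri-snRNP bridge, rose by 0.18 and 0.19 in the same comparison. PRPF4B, a kinase, was at 0.15 in the mutant rescue against the knockdown. PRPF38A rose by 0.22 on knockdown. PRPF4 was called in no comparison.

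**Figure D4:**
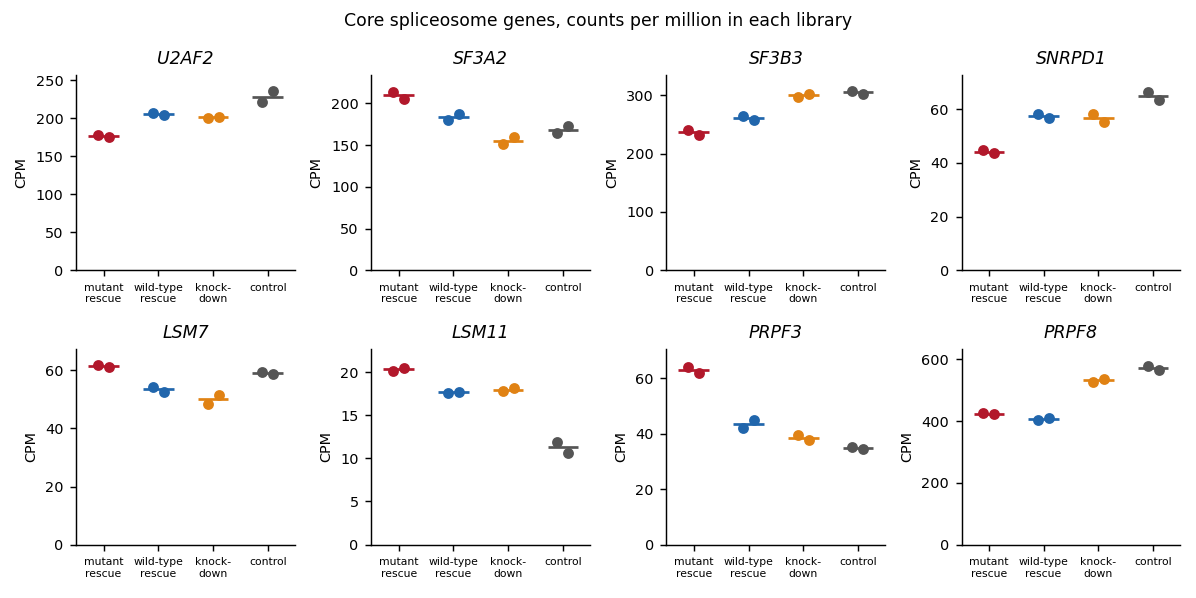
CPM (vertical axis, from 0) of 8 U2AF, SF3, SNRP, LSM and PRPF genes in each library, with bars at the mean of 2. PRPF3 and SF3A2 were highest in the mutant rescue (means of 63.0 and 209.8 CPM), LSM11 was lowest in the control (11.3 CPM), and PRPF8 was lower in both rescues than in the knockdown and the control.

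Over the 82 genes, the highest group mean exceeded the lowest by a median of 1.2-fold, and 11 genes exceeded 1.5-fold. The mutant rescue held the lowest mean of 33 genes and the highest of 28, the wild-type rescue 5 and 13, the knockdown 29 and 5, and the control 15 and 36. Among SR genes the mutant rescue was lowest for 8 of 12 and the control highest for 8. Among LSM genes the mutant rescue was highest for 10 of 13 and lowest for none. These extremes were not counted over all genes, so they do not show a trait particular to these genes. HNRNPAB, HNRNPK, HNRNPU, PRPF19, PRPF3, PRPF8 and SF3A2 were called in all 6 comparisons, each with at least 1 call that ended under some alternative, and 9 genes were called in none (HNRNPA0, HNRNPR, LSM2, LSM6, LSM12, PRPF4, SNRPB2, SRSF9 and SRSF12).

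Per length, in TPM (length-scaled counts), the 91 genes summed to 10489 ± 9.40 in the mutant rescue, 11087 ± 74.1 in wild-type rescue cells, 10989 ± 71.1 in the knockdown and 11384 ± 36.6 in the control (SD, n = 2 each). HNRNPA2B1 was highest at a mean of 712 TPM over the 8 libraries, before SNRPB (397) and SNRPD2 (367), and SRSF12 (0.852), SNRPN (1.73) and HNRNPA1L2 (4.13) were the lowest of those tested. By class, the hnRNP sum was 3259 ± 7.02 TPM in the mutant rescue, 3693 ± 77.2 in wild-type rescue cells, 3718 ± 7.67 in the knockdown and 3878 ± 18.9 in the control. The SR sum was 1432 ± 12.3, 1519 ± 17.1, 1483 ± 27.9 and 1624 ± 2.99 TPM in the same order, so both classes were lowest in the mutant rescue and highest in the control. The LSM sum was 1356 ± 4.79 TPM in the mutant rescue, 1299 ± 0.347 in wild-type rescue cells, 1257 ± 5.38 in the knockdown and 1274 ± 1.83 in the control, highest in the mutant rescue. The SF3 sum was 1770 ± 10.99 TPM in the mutant rescue, 1739 ± 4.62 in wild-type rescue cells, 1719 ± 14.6 in the knockdown and 1680 ± 5.95 in the control, highest in the mutant rescue. The PRPF sum was 954 ± 0.523 TPM in the mutant rescue, 939 ± 4.08 in wild-type rescue cells, 1005 ± 3.91 in the knockdown and 1032 ± 6.90 in the control, lowest in the wild-type rescue. These sums were not tested.

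Knockdown against control and mutant against wild-type rescue share no library, so their values can be set side by side. Of the 51 and 46 genes called, 20 were called in both in the same direction (39.2% of the first and 43.5% of the second, against 23% and 26.8% over all genes tested), 18 lower in both and 2, LSM11 and PRPF3, higher in both, LSM11 with a call between the rescues that ended in 11 of 14 alternatives and PRPF3 with a knockdown call that ended in 4. The 18 were HNRNPAB, HNRNPF, HNRNPK, HNRNPL, HNRNPM, HNRNPU, RBMX, PRPF19, SNRPA, SNRPB, SNRPD1, SNRPF, SRSF2, SRSF3, SRSF7, SRSF8, SRSF10 and U2AF2. They were not equally firm: the knockdown calls of HNRNPK and SRSF10 ended under some alternatives. Calls of SNRPF on knockdown (adjusted p = 0.0337 by edgeR) and SNRPA between the rescues (adjusted p = 0.0316 by edgeR) were near the threshold. As shares of the genes tested, 24.4% of the 82 were called in both in the same direction, against 11% of all genes, and 22% were lower in both, against 5.8%. Another 11 were called in opposite directions, or 13.4% of the 82 against 13.1% of all genes, a share near the background (21.6% and 23.9% of these genes' calls, against 27.4% and 31.9%), among them HNRNPC, LSM7 and SF3A2, lower on knockdown and higher with the mutant, and HNRNPDL, higher on knockdown and lower with the mutant. Both calls of LSM7 and of HNRNPDL held in every alternative, and the knockdown calls of HNRNPC and SF3A2 did not. With the DESeq2 Wald test the counts were 13 and 5, and the opposite count was 6 without knockdown replicate 1 or without control replicate 2.

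The difference between the 2 log2 fold changes (knockdown minus mutant) was called for 52 of the 82 genes, against 45.7% of all genes tested. SRSF2, SRSF7, RBMX and U2AF2 had no called difference: it was 0.06 ± 0.05 (SE, adjusted p = 0.348 by edgeR) for SRSF2 and 0.10 ± 0.07 (SE, adjusted p = 0.256 by edgeR) for RBMX, which does not show equal effects. SRSF3 fell more on knockdown, by -0.19 ± 0.06 (SE, adjusted p = 0.00288 by edgeR), as did SRSF8, by -0.43 ± 0.07 (SE, adjusted p = 1.38e-08 by edgeR). HNRNPU and HNRNPD fell more between the rescues, by 0.42 ± 0.03 (SE, adjusted p = 6.58e-27 by edgeR) and 0.51 ± 0.04 (SE, adjusted p = 1.01e-25 by edgeR). SRSF4 differed by -0.55 ± 0.05 (SE, adjusted p = 5.68e-18 by edgeR): it was not called on knockdown and rose between the rescues.

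**Figure D5:**
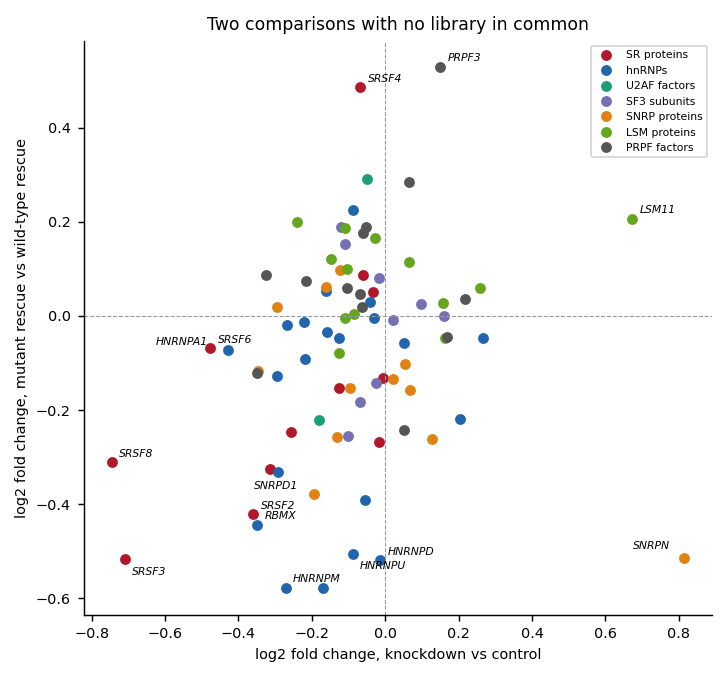
Log2 fold change on knockdown against control (horizontal axis) and of mutant over wild-type rescue (vertical axis) for the 82 genes, coloured by class, with dashed lines at 0. SRSF3, SRSF8, SRSF2, RBMX and HNRNPM lie low on both axes, SRSF6 on the horizontal one only (-0.48 against -0.07), and SRSF4 and PRPF3 lie at the top.

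The other splicing genes, 190 in the table from lists by role, mostly fell where called on knockdown. Between the rescues they moved both ways. Of the 184 tested, 30 rose and 68 fell on knockdown, 46 rose and 45 fell between the rescues, 38 rose and 30 fell in the wild-type rescue against the knockdown, and 61 rose and 59 fell in the mutant rescue against it. Against the control, 64 rose and 76 fell in the mutant rescue and 43 rose and 69 fell in the wild-type rescue. Over all genes tested, 22.9% rose and 25.1% fell on knockdown, and 21% rose and 20.3% fell between the rescues. The tilt to falls on knockdown was therefore not limited to the genes of the naming rule. The separate lists were not compared with all genes. Of the branch-site factors outside the naming rule 9 of 14 fell and none rose on knockdown, including SF1, the branch-point binding protein (-0.65), and DHX15 (-0.35). Exon junction and export factors fell in 11 of 19 and rose in 1, with -0.52 for the export receptor NXF1. Of the SR protein kinases and phosphatases 2 of 16 rose and 3 fell on knockdown, with SRPK2 at -0.62 and SRPK1 at -0.43, and between the rescues 7 rose and 2 fell, with the kinase CLK3 at 0.36. SFPQ, a partner of many splicing complexes, fell by 0.84 on knockdown. In its list, the other sequence-specific regulators, RBFOX2 rose by 0.62 and RBM20, at a mean of 6.04 CPM, by 0.88. Among factors that assemble the Sm ring, 9 of 23 fell and 1 rose on knockdown, and 6 fell and 3 rose between the rescues, where PRMT5 (-0.42) and its partner WDR77 (-0.64), which methylate Sm proteins, were among those that fell. SR-related proteins rose in 9 of 24 and fell in 5 on knockdown, with RSRC2 at 0.56, and rose in 9 and fell in 4 between the rescues, with CCNL1 at 0.42 and LUC7L at 0.41. Prp19 complex and step factors had 4 higher and 4 lower of 26 on knockdown and 6 higher and 5 lower between the rescues. U5 and tri-snRNP proteins outside the naming rule had 2 higher and 5 lower of 12 on knockdown and 4 higher and 1 lower between the rescues. Minor spliceosome proteins had none higher and 2 lower of 8 on knockdown, and 1 higher and 2 lower between the rescues. Other sequence-specific regulators had 11 higher and 20 lower of 42 on knockdown, and 7 higher and 15 lower between the rescues.

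GGACT, a form of the consensus that METTL3 methylates, was counted on principal transcripts of the GENCODE v29 annotation. Its median was 0.814 per kilobase over the 82 genes, against 0.931 over 20298 protein-coding genes, 0.637 in the SR class and 1.13 in the SF3 class. Genes that fell between the rescues had a median of 0.686, genes that rose 0.865 and genes that were not called 0.901. On knockdown the medians were 0.855 for genes that fell, 0.791 for genes that rose and 0.805 for the rest. The 20298 genes were not limited to those with enough counts to be tested, as the 82 were. These are counts of letters, and methylation itself was not measured in these libraries.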

How the data were processed

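Raw counts of each gene in 8 libraries were deposited by the authors in 1 table, with a further column of gene lengths in bases, which served here for TPM. Per the submitters' processing notes, CASAVA, STAR 2.5.2b, featureCounts, DESeq2 and the build hg19 were used; their settings are not given in the sources used here. RNA came from a TRIzol extract and a stranded messenger RNA kit, per the labels' protocols.

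Counts were fitted with edgeR 4.0.16 in R 4.3.3 by the quasi-likelihood test with robust dispersion, after filterByExpr (minimum count 10, minimum total 15) and TMM scaling, with 1 mean per group over all 8 libraries and no covariates. A gene was called at a two-sided Benjamini-Hochberg adjusted p under 0.05 over 15289 genes. SE was taken as |log2 fold change| over the root of the F statistic. The biological coefficient of variation was 1.4%. At 2 libraries against 2, an exact permutation test cannot reach 0.05. Replicates of a group differed by more than counting noise, with a chi-square per degree of freedom of 1.14 to 1.71 over these genes.

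The genes, classes and lists were chosen with earlier results of these data known, so class counts are descriptions without a test. Named genes are METTL3, the 4 known for methylated RNA, per comparison and class up to 2 rises and 2 falls (called, at least 5 CPM, no overlap), the 3 highest and 3 lowest in TPM, and untested genes; per other list, a selection of up to 2 called genes per direction. SRSF1, SRSF6, SRSF7, SRSF9, HNRNPF, HNRNPL, HNRNPAB, HNRNPDL, LSM1, LSM14A, PRPF6 and PRPF39, and genes given for their pattern of calls or named in a list of calls, were chosen after their values were seen. Alternatives were DESeq2 1.42.0 size factors, its Wald test, no filter, only the groups compared, a replicate block, the length trend removed (lowess, span 0.3) and each library left out in turn. The steps were run on simulated counts of independent libraries with 1 fixed spread. That run does not cover libraries that are technical copies of each other. Some single-gene results are not reported here.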

Additional observations from a re-analysis of the deposited data

How the results depend on the processing

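Counts of calls among the 82 genes moved by over 1.5 times with the DESeq2 Wald test, which called 9 genes higher on knockdown, 11 higher and 3 lower in the wild-type rescue against the knockdown, and 10 higher between the rescues, and left 13 genes called in the same and 5 in opposite directions across both comparisons. The cause was not tested. Leaving out each library in turn gave 8 to 14 genes higher on knockdown, 15 to 23 higher and 3 to 6 lower in the wild-type rescue against the knockdown, and 6 to 11 genes in opposite directions. Of the 51 knockdown calls, 8 higher and 25 lower held in all 14 alternatives, and of the 46 calls between the rescues 9 and 24. With the replicate number as a block, knockdown gave 14 higher and 38 lower and the rescues 16 and 30; the numbers do not pair the samples, since deviations of same-numbered libraries correlated at -0.0424 to 0.0250. Removing the length trend gave 17 higher and 6 lower in the wild-type rescue against the knockdown. Of 894 values of named genes under the other settings, 853 kept their direction and call, 41 lost the call (22 of them with the DESeq2 Wald test) and 0 reversed; of 1192 with a library left out, 69 lost the call, 3 gained it and 0 reversed. Genes near 20 counts, such as SNRPN and SRSF12, are limited by depth.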
